A study of Mus musculus with 16 samples.

Results

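The genes described here carry glucose from its uptake to lactate, pass pyruvate into the tricarboxylic acid (TCA) cycle and set the response of a cell to low oxygen. The list held 43 genes, named by symbol and chosen by function, with earlier results of these data known. Of these, 43 were found among the 20622 genes of the data. They were the glucose transporters Slc2a1 and Slc2a3, the enzymes from hexokinase to lactate dehydrogenase and the kinases and subunits of pyruvate dehydrogenase. The others were TCA cycle enzymes, listed with the cytosolic Idh1 and Mdh1, and the hypoxia genes Hif1a, Egln1, Egln3, Vegfa, Car9 and Ankrd37. In each comparison 38 members passed the filter on low counts. The other members, Slc2a3, Eno2, Ldhb, Pdk2 and Car9, had at most 10 counts in any library and were not tested.

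KM cells are a line derived from mouse lung tumours that carried Rosa26 LSL-MYC/LSL-MYC, a source of extra MYC. All groups shared this genotype and all cells were untreated. KM_NTC cells had been given a CRISPR vector with a non-targeting guide, and KM_4A2cr cells were a pool of 4 clones that had lost eIF4A2, an RNA helicase of the translation machinery and the CCR4-NOT complex, after cutting in the coding region of Eif4a2. Both lines came from the tumours of a single male animal at clinical endpoint. The comparison is therefore between derivatives of 1 line and not between animals. Selection of clones is described for KM_4A2cr alone, so its effect cannot be told apart from that of eIF4A2 loss. Ribosome-protected fragments (RPFs), the stretches of mRNA covered by ribosomes, and cytoplasmic total RNA were taken from the same lysates in 4 independent experiments per line, which gave 16 libraries.

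Each RPF library held 4512403 to 9621848 counts and each total RNA library 5350919 to 9312622, and replicate 4 had the smallest RPF libraries of both lines. Levels are given as CPM, the count of a gene scaled to a common library size after TMM normalisation. Eif4a2 itself had RPF levels of 97.7, 122, 99.8 and 389 CPM in KM_NTC replicates 1 to 4 and 51.0, 88.4, 74.8 and 346 CPM in KM_4A2cr, a log2 fold change of -0.49 ± 0.15 (SE) with an adjusted p of 0.0941 by edgeR's quasi-likelihood test. It was lower in all 4 pairs, although the mRNA remained, and its level was higher in replicate 4 than in the other replicates of both lines. The epithelial markers Epcam, Cdh1, Krt8, Krt18 and Krt19 summed to 3911 to 5714 TPM over the total RNA libraries. Of these, Epcam and Cdh1 were higher in RPFs of KM_4A2cr, at log2 fold changes of 0.51 and 0.44 with adjusted p values of 0.077 and 0.0845 by edgeR. Neither was called in total RNA, with adjusted p values of 0.101 and 0.220 by edgeR. The keratins Krt8, Krt18 and Krt19 were not called in RPFs, at -0.05, -0.10 and 0.13 with adjusted p values of 0.847, 0.668 and 0.575 by edgeR. Of the alveolar type II markers, Sftpc and Sftpb were at 0 in every library and Lamp3 and Nkx2-1 reached at most 1.63 TPM. The lipid transporter Abca3, of the same list, lay between 27.6 and 47.6 TPM and was higher in KM_4A2cr, at 0.54 in RPFs and 0.62 in total RNA with adjusted p values of 0.0501 and 0.024 by edgeR. The part of these markers in the differences between the lines was not tested. The fibroblast, endothelial and leukocyte lists were near 0 apart from Cd68, a lysosomal protein of macrophages. Cd68 lay between 32.5 and 62.9 TPM in replicates 1 to 3 and at 219.9 and 154 TPM in replicate 4 of KM_NTC and KM_4A2cr. In such bulk samples more cells of a type and more RNA per cell cannot be told apart.

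Glycolysis splits glucose into pyruvate in the cytoplasm, and its pace is set at hexokinase, phosphofructokinase and pyruvate kinase. Lactate dehydrogenase turns pyruvate into lactate, whereas the pyruvate dehydrogenase complex, which its kinases switch off, sends it to the TCA cycle in the mitochondrion. When oxygen is scarce the prolyl hydroxylases of the Egln family stop marking HIF-1α for destruction, and HIF-1 raises transcription of glucose transporters, glycolytic enzymes, Vegfa and Egln3. MYC raises many of the same genes, and tumour cells are known for high glycolysis even with oxygen present.

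HIF-1 binds DNA at a short core, ACGTG or GCGTG, and the first of these also lies within CACGTG, the E-box that MYC binds. The promoters of the members that the results turn on are shown so that these letters can be seen, as the 250 bases before each RefSeq start site (GRCm38.p6, written 5′ to 3′ on the strand of the gene). Capitals mark each match to ACGTG or GCGTG on either strand. The promoters are those of Egln3 (chr12:54203875-54204124, minus strand), both start sites of Vegfa (chr17:46032378-46032627 and, downstream, chr17:46025164-46025413, minus strand), Pfkfb4 (chr9:108991652-108991901, plus strand) and the upstream start of Ldha (chr7:46845554-46845803, plus strand). The first 3 of these genes were higher in KM_4A2cr in at least 1 kind of library, and Ldha is one of several glycolytic genes that stood low in replicate 4 of both lines.
Egln3: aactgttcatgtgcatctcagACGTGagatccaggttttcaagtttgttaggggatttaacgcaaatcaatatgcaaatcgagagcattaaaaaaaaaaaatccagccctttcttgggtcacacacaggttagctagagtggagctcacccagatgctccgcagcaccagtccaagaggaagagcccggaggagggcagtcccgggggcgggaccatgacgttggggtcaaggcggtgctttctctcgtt
Vegfa, upstream start: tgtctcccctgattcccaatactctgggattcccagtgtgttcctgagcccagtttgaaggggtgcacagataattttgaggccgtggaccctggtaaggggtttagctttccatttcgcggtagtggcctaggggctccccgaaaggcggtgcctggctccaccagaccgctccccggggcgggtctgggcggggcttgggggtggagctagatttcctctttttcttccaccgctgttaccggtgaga
Vegfa, downstream start: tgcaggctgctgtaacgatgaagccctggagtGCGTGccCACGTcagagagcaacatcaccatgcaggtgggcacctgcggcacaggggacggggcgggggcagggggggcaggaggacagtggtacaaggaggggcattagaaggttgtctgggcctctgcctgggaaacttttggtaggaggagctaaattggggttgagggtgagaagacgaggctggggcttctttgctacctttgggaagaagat
Pfkfb4: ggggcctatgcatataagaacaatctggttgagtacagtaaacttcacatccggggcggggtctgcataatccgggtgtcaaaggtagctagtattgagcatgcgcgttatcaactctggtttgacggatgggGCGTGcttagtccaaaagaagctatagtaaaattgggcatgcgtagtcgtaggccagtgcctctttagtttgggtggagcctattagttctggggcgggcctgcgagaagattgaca
Ldha: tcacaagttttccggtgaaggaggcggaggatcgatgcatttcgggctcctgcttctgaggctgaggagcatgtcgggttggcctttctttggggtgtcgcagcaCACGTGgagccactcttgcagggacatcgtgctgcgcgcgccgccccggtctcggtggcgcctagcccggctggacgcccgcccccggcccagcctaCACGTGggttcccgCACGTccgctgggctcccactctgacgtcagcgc
The Egln3 window held 1 match and the Pfkfb4 window 1, the downstream Vegfa window 2 and the upstream Vegfa window 0. The downstream Vegfa window lies inside the gene, after the upstream start, and its 2 matches fall in bases that code for the VEGF-A protein. The Ldha window held 5 matches, of which pairs overlap within CACGTG. RefSeq gave a start site for 41 members with 64 promoters in all, and 50 of these promoters (78.1%) held a match, against 38.6% of the 32851 promoters in the table. Both cores hold CG on either strand, and the promoters compared were not matched for how much CG they hold. CACGTG was present in 9 of the 64 member promoters and in 6.02% of all promoters. These matches are letters in a window and no measure of binding.

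In RPFs, KM_4A2cr cells had more Egln3 and Vegfa and less Aldoc than KM_NTC cells at a threshold of 0.1 on the adjusted p. Of 38 tested members 2 were higher, where 6.60% of the 10291 genes tested were, and 1 was lower, where 3.72% were. The log2 fold changes of 29 members lay below 0 and those of 9 above, with a median of -0.11, while the median over all genes was -0.009. In total RNA 2 members were higher, Egln3 and Pfkfb4, and edgeR called 0 lower, against 4.35% and 1.78% of the 10880 genes tested. There 7 members had an unadjusted p under 0.05 in either direction, DESeq2 also called 0 lower, and the members lay evenly about 0 with a median of 0.006. Without replicate as a term edgeR called 0 members and 0 genes in either kind of library, with 365 genes in RPFs and 362 in total RNA at an unadjusted p under 0.05. The plot of fold changes by member shows both kinds of library together.

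**Figure D1:**
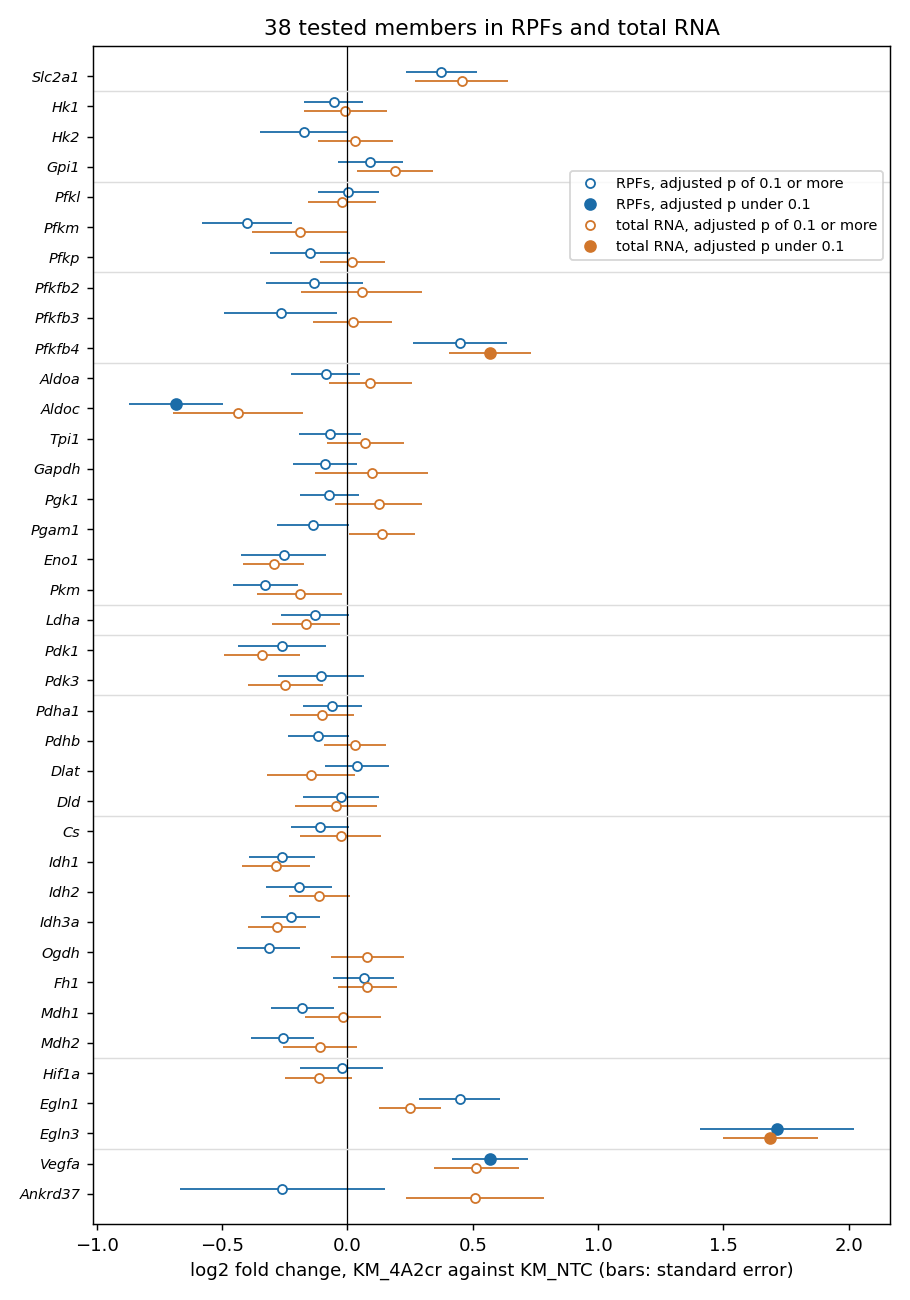
Log2 fold change of KM_4A2cr against KM_NTC for the 38 tested members, ordered from glucose uptake to hypoxia targets, in RPFs (blue) and total RNA (orange), with bars for the standard error and filled points for an adjusted p under 0.1. Egln3 stands apart at 1.71 and 1.69, and the other filled points are Vegfa and Aldoc in RPFs and Pfkfb4 in total RNA.

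Hypoxia sensing held the largest change among the members. Egln3, the prolyl hydroxylase that HIF-1 itself induces, had 8.70, 2.88, 4.60 and 4.79 CPM in total RNA of KM_NTC replicates 1 to 4 and 20.9, 10.2, 20.6 and 14.3 CPM in KM_4A2cr. The groups did not overlap, and the log2 fold change was 1.69 ± 0.19 (SE) with an adjusted p of 0.00185 by edgeR. In RPFs the levels were 4.07, 0.596, 1.37 and 1.26 CPM in KM_NTC and 7.97, 3.57, 7.15 and 4.31 CPM in KM_4A2cr. Here KM_NTC replicate 1 lay above KM_4A2cr replicate 2, but every pair was higher in KM_4A2cr, and the log2 fold change was 1.71 ± 0.31 (SE) with an adjusted p of 0.0198 by edgeR. The counts behind these RPF levels were low, from 6 to 45 in KM_NTC libraries and from 16 to 66 in KM_4A2cr libraries. Without replicate 3 the RPF call was lost, at 1.56 with an adjusted p of 0.2 by edgeR, whereas the total RNA call held without each replicate, with adjusted p values of up to 0.029 by edgeR.

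Egln1, the main oxygen sensor of the family, gave a higher level in KM_4A2cr in every pair, at log2 fold changes of 0.45 ± 0.16 (SE) in RPFs and 0.25 ± 0.12 (SE) in total RNA, but the adjusted p was 0.142 and 0.315 by edgeR. Hif1a, which encodes the oxygen-regulated subunit of HIF-1, gave -0.02 ± 0.17 (SE) and -0.11 ± 0.13 (SE), with adjusted p values of 0.951 and 0.708 by edgeR. Its 4 pairs were split, with lower levels in KM_4A2cr in replicates 1 to 3 and a higher level in replicate 4.

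Among the hypoxia targets, Vegfa, a secreted growth factor for blood vessels, had RPF levels of 129.8, 165, 193 and 886 CPM in KM_NTC and 207, 281, 329 and 928 CPM in KM_4A2cr. Within each pair KM_4A2cr was higher, by 0.67, 0.77, 0.77 and 0.07 on the log2 scale, so replicate 4 carried the highest level and the smallest difference. The log2 fold change was 0.57 ± 0.15 (SE) with an adjusted p of 0.0692 by edgeR. The call was lost without replicate 1, 2 or 3, with adjusted p values of 0.216, 0.367 and 0.345 by edgeR, and held without replicate 4 at 0.74 (adjusted p = 0.000213). In total RNA the levels were 285, 306, 373 and 1318 CPM in KM_NTC and 430.1, 521, 591 and 1350.2 CPM in KM_4A2cr. These gave 0.51 ± 0.17 (SE), with an adjusted p of 0.136 by edgeR. Total RNA Vegfa was called higher by DESeq2 (adjusted p = 0.0525) and by edgeR with no filter on low counts (0.0736), with only the isoform with RPF counts (0.0796) and without replicate 4 (1.75e-05). Ankrd37, an ankyrin repeat protein induced by low oxygen, was scarce, with 1 to 22 counts in an RPF library, and gave -0.26 ± 0.41 (SE) in RPFs and 0.51 ± 0.27 (SE) in total RNA, with adjusted p values of 0.74 and 0.368 by edgeR.

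**Figure D2:**
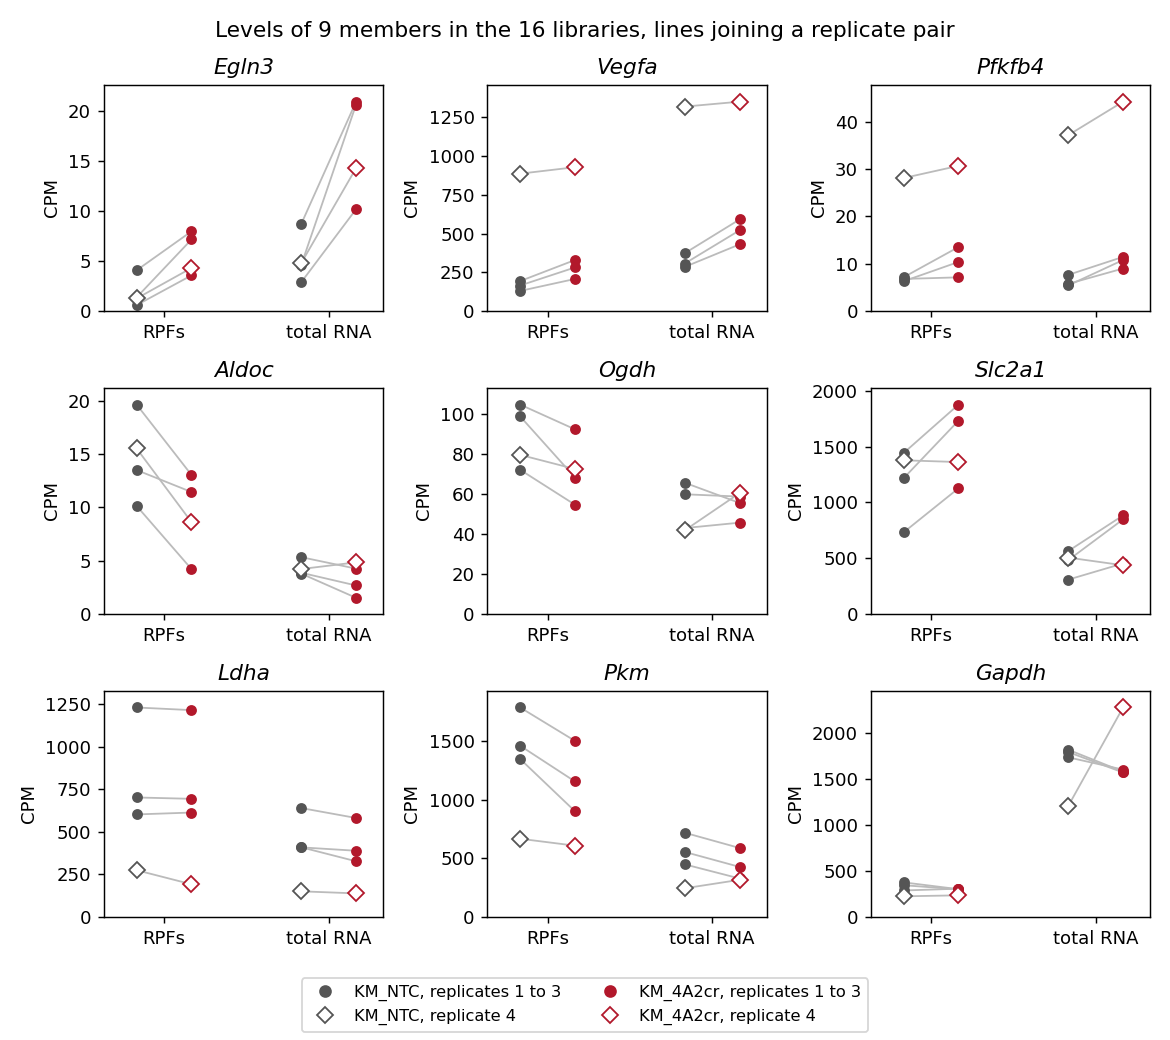
Level in CPM (axes from 0) of 9 members in all 16 libraries, with KM_NTC in grey, KM_4A2cr in red, open diamonds for replicate 4 and a line joining the 2 lines of a replicate. Egln3 rises along every line, whereas Vegfa and Pfkfb4 in replicate 4 sit far above the other replicates of both lines and Ldha and Pkm sit below them.

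Glucose uptake and the first steps of glycolysis gave no call. Slc2a1, the main glucose transporter of these cells, had RPF levels of 1216, 731, 1442 and 1377 CPM in KM_NTC and 1732, 1126, 1876 and 1361 CPM in KM_4A2cr. It was higher in KM_4A2cr in replicates 1 to 3 and about equal in replicate 4, and the log2 fold change of 0.37 ± 0.14 (SE) had an adjusted p of 0.155 by edgeR. Total RNA gave 0.46 ± 0.19 (SE), with an adjusted p of 0.227 by edgeR. Hk1 and Hk2, which trap glucose in the cell, and Gpi1, which isomerises it, lay between -0.17 and 0.09 in RPFs and between -0.01 and 0.19 in total RNA. The phosphofructokinases Pfkl and Pfkp gave RPF log2 fold changes of 0.00 and -0.15, and Pfkm gave -0.40 ± 0.18 (SE), lower in 4 of 4 pairs, with an adjusted p of 0.215 by edgeR.

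Pfkfb4, which makes and removes the fructose-2,6-bisphosphate that stimulates phosphofructokinase, rose in total RNA. Its levels were 5.75, 7.64, 5.41 and 37.2 CPM in KM_NTC and 8.99, 11.5, 10.8 and 44.3 CPM in KM_4A2cr, with replicate 4 highest in each line. Each pair was higher in KM_4A2cr, and the log2 fold change was 0.57 ± 0.16 (SE) with an adjusted p of 0.0945 by edgeR. It was lost without replicate 1, 2 or 3, with adjusted p values of 0.256, 0.353 and 0.475 by edgeR, and with DESeq2, at 0.174. It was also lost with upper-quartile factors (adjusted p = 0.142), library size alone (0.169), a minimum count of 30 (0.103) and only the isoform with RPF counts (0.23) by edgeR. RPFs gave 6.79, 7.15, 6.30 and 28.1 CPM in KM_NTC and 7.13, 13.5, 10.4 and 30.7 CPM in KM_4A2cr. This was also higher in 4 of 4 pairs, at 0.45 ± 0.19 (SE), with an adjusted p of 0.187 by edgeR. The related Pfkfb2 and Pfkfb3 gave -0.13 and -0.27 in RPFs and 0.06 and 0.02 in total RNA.

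From aldolase to pyruvate kinase, 8 of 8 tested members had RPF log2 fold changes below 0, with a median of -0.11, and 1 passed the test. Without replicate 3 this became 5 of 8. In total RNA 5 of the 8 lay above 0 and none passed by edgeR or DESeq2. When libraries were scaled by library size alone, 0 of 8 lay above 0 and Eno1 was called lower, at -0.45 with an adjusted p of 0.0668 by edgeR. Aldoc, an aldolase best known from brain, was the member that fell, with RPF levels of 19.6, 13.5, 10.1 and 15.5 CPM in KM_NTC and 13.0, 11.4, 4.21 and 8.62 CPM in KM_4A2cr. The groups overlapped, but all 4 pairs were lower in KM_4A2cr, and the log2 fold change was -0.68 ± 0.19 (SE) with an adjusted p of 0.0767 by edgeR. Without replicate 1, 2 or 3 the call was lost, with adjusted p values of 0.198, 0.159 and 0.345 by edgeR. In total RNA it gave 5.33, 3.87, 3.79 and 4.22 CPM in KM_NTC and 4.25, 2.67, 1.51 and 4.84 CPM in KM_4A2cr, at -0.43 ± 0.26 (SE) with an adjusted p of 0.421 by edgeR.

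The most abundant glycolytic mRNAs per length were Gapdh, Aldoa and Ldha, with mean TPM over the 8 total RNA libraries of 2383, 676 and 529. Gapdh, which carries out the oxidative step, had RPF levels of 344, 287, 375 and 224 CPM in KM_NTC and 299.9, 307, 301 and 234 CPM in KM_4A2cr. The RPF log2 fold change was -0.09 ± 0.13 (SE). In total RNA Gapdh gave 1794, 1736, 1819 and 1206 CPM in KM_NTC and 1571, 1603, 1580.3 and 2279 CPM in KM_4A2cr, and 0.10 ± 0.23 (SE). Replicate 4 was the lowest library in KM_NTC and the highest in KM_4A2cr. Mean Gapdh levels in KM_NTC were 308 CPM in RPFs and 1639 CPM in total RNA. Whether Gapdh footprints were counted on near-identical copies was not tested.

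Aldoa, the muscle-type aldolase that most cells use, had RPF levels of 676, 538, 586 and 516 CPM in KM_NTC and 576, 599, 452 and 556 CPM in KM_4A2cr, and total RNA levels of 654, 496, 457 and 512 and 616, 495, 419.6 and 766 CPM. The lines overlapped in both, at log2 fold changes of -0.09 and 0.09. The related genes, Aldoart1 and Aldoart2, held 101 to 172 and 39.4 to 70.6 CPM of RPFs but at most 10.6 CPM of total RNA, and reads of near-identical copies can be exchanged between them.

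Eno1, an enolase, is less certain for the same reason. Its RPF levels were 32.3, 28.3, 29.9 and 7.76 CPM in KM_NTC and 36.5, 24.2, 21.3 and 4.31 CPM in KM_4A2cr. The near-identical Eno1b held 1129, 917, 767 and 258 and 959, 767, 659.9 and 148 CPM in the same libraries, so most enolase footprints were counted on Eno1b. In total RNA the 2 genes were closer, with Eno1 at 283, 263, 214 and 78.0 CPM in KM_NTC and 238, 196, 181 and 65.2 CPM in KM_4A2cr and Eno1b between 70.5 and 326 CPM. Neither gene passed the test in either kind of library, and Eno1b gave -0.37 ± 0.14 (SE) in RPFs with an adjusted p of 0.155 by edgeR.

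Pkm, pyruvate kinase, had RPF levels of 1791, 1464, 1350.3 and 668 CPM in KM_NTC and 1505, 1158, 903 and 609 CPM in KM_4A2cr. Its RPFs were lower in KM_4A2cr in 4 of 4 pairs, at -0.33 ± 0.13 (SE), with an adjusted p of 0.168 by edgeR. In total RNA replicates 1 to 3 were lower and replicate 4 was higher, at -0.19 ± 0.17 (SE). Tpi1, Pgk1 and Pgam1 lay between -0.14 and -0.07 in RPFs and between 0.07 and 0.14 in total RNA.

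Ldha, which makes lactate, had RPF levels of 1230.0, 701, 602 and 274 CPM in KM_NTC and 1214, 693, 613 and 191 CPM in KM_4A2cr. Replicates 1 to 3 were almost equal between the lines, and replicate 4 was low in both. The RPF log2 fold change was -0.13 ± 0.14 (SE) and that of total RNA -0.16 ± 0.13 (SE), with adjusted p values of 0.615 and 0.569 by edgeR. In total RNA the levels were 639, 408, 409 and 150.0 CPM in KM_NTC and 581, 388, 326 and 138 CPM in KM_4A2cr, lower in KM_4A2cr in 4 of 4 pairs.

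Pyruvate entry into the TCA cycle gave no call. Pdk1, a kinase that switches off pyruvate dehydrogenase and a HIF-1 target, had total RNA levels of 90.9, 53.0, 68.8 and 34.3 CPM in KM_NTC and 78.8, 55.5, 46.0 and 20.7 CPM in KM_4A2cr, and -0.34 ± 0.15 (SE) with an adjusted p of 0.27 by edgeR. Its RPF levels were 24.6, 14.3, 16.6 and 7.97 and 26.0, 12.1, 13.3 and 4.04 CPM, at -0.26 ± 0.17 (SE). Pdk3 gave -0.11 in RPFs and -0.25 in total RNA. The pyruvate dehydrogenase subunits Pdha1, Pdhb, Dlat and Dld lay between -0.11 and 0.04 in RPFs and between -0.14 and 0.03 in total RNA, with 0 of 4 called by edgeR and none at an unadjusted p under 0.05.

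The list of TCA cycle enzymes also holds the cytosolic Idh1 and Mdh1. Of its 8 enzymes 7 had RPF log2 fold changes below 0, with a median of -0.21, where 5262 of the 10291 genes tested did. In RPFs 0 of the 8 passed by edgeR or DESeq2, with 1 at an unadjusted p under 0.05. In total RNA 6 of 8 lay below 0 with a median of -0.07. Only Fh1, the fumarase, was above 0 in RPFs, at 0.07. Mdh2 and Idh3a, which reduce NAD in the mitochondrion, were lower in RPFs in 4 of 4 pairs, at -0.26 ± 0.13 (SE) and -0.23 ± 0.12 (SE), with adjusted p values of 0.253 and 0.291 by edgeR. Idh1, the cytosolic isocitrate dehydrogenase, gave -0.26 in RPFs and -0.28 in total RNA.

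Ogdh, a subunit of the 2-oxoglutarate dehydrogenase complex, was the member whose translational efficiency changed. Translational efficiency is the RPF change beyond that of total RNA, tested as an interaction in 1 model over all libraries. Ogdh RPF levels were 72.1, 105, 98.8 and 79.5 CPM in KM_NTC and 54.6, 92.3, 68.2 and 72.4 CPM in KM_4A2cr, lower in 4 of 4 pairs. Total RNA levels were 42.9, 59.8, 65.6 and 41.8 and 45.6, 58.7, 55.5 and 60.4 CPM, with 2 pairs higher and 2 lower. The difference between the RPF and total RNA changes was -0.38 ± 0.11 (SE) on the log2 scale, with an adjusted p of 0.0908 by edgeR. It was the 1 member of 38 called lower, against 1.00% of 9989 genes, and 0 were called higher by edgeR, against 1.87%. DESeq2 called 0 in either direction, and 3 members had an unadjusted p under 0.05. The call was lost when any 1 replicate was left out, with values from -0.28 to -0.47 and adjusted p values from 0.141 to 0.426 by edgeR.

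Replicate 4 stood apart for these genes in 2 ways, by levels that both lines shared and by the difference between the lines within it. The first is described with no test, since replicate 4 was singled out with results known. A gene was counted when replicate 4 differed from the mean of replicates 1 to 3 by at least 1 on the log2 CPM scale, the same way in both lines. In RPFs 3 of 38 members were at least 2-fold higher (4.83% of all genes) and 5 were at least 2-fold lower (6.19% of all genes). In total RNA the counts were again 3 higher (4.87%) and 5 lower (4.12%). The higher members were Vegfa, Pfkfb4 and Fh1 in both kinds of library. Eno1, Pfkl, Ldha and Pdk1 were lower in both, Pgk1 in RPFs and Ankrd37 in total RNA.

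Pfkfb4 stood 2.02 higher in RPFs of KM_NTC and 1.59 higher in KM_4A2cr on the log2 scale, and Vegfa 2.46 and 1.79 higher. Ldha differed by -1.55 and -2.07, and Pfkl, the liver-type phosphofructokinase, by -1.73 and -1.94. Pfkl RPF levels were 169, 84.0, 85.3 and 31.9 CPM in KM_NTC and 167, 86.6, 92.6 and 28.5 CPM in KM_4A2cr, with total RNA at 69.3, 32.7, 28.8 and 13.2 and 60.7, 33.8, 34.3 and 11.1 CPM. Members known as HIF-1 targets therefore stood on both sides in replicate 4, with Vegfa and Pfkfb4 higher and Ldha, Pdk1 and Pgk1 lower. Just short of the count in RPFs were Pkm, at -1.19 and -0.93, and Pgam1, at -1.23 and -0.83, and just inside it was Pgk1, at -1.19 and -1.15. The median over all tested members was -0.30 in KM_NTC and -0.31 in KM_4A2cr RPFs, against 0.004 and -0.05 over all genes. Among 26 other hypoxia genes described below, 3 were at least 2-fold higher in RPFs (4.83% of all genes) and 0 lower (6.19%). In total RNA 5 of 25 were higher (4.87%) and 0 lower (4.12%). Their medians were 0.31 in RPFs of both lines, and 0.36 in KM_NTC and 0.42 in KM_4A2cr in total RNA. Eif4a2 and Cd68 were also higher in replicate 4 of both lines, and depth was lower, and their part in these differences was not tested.

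**Figure D3:**
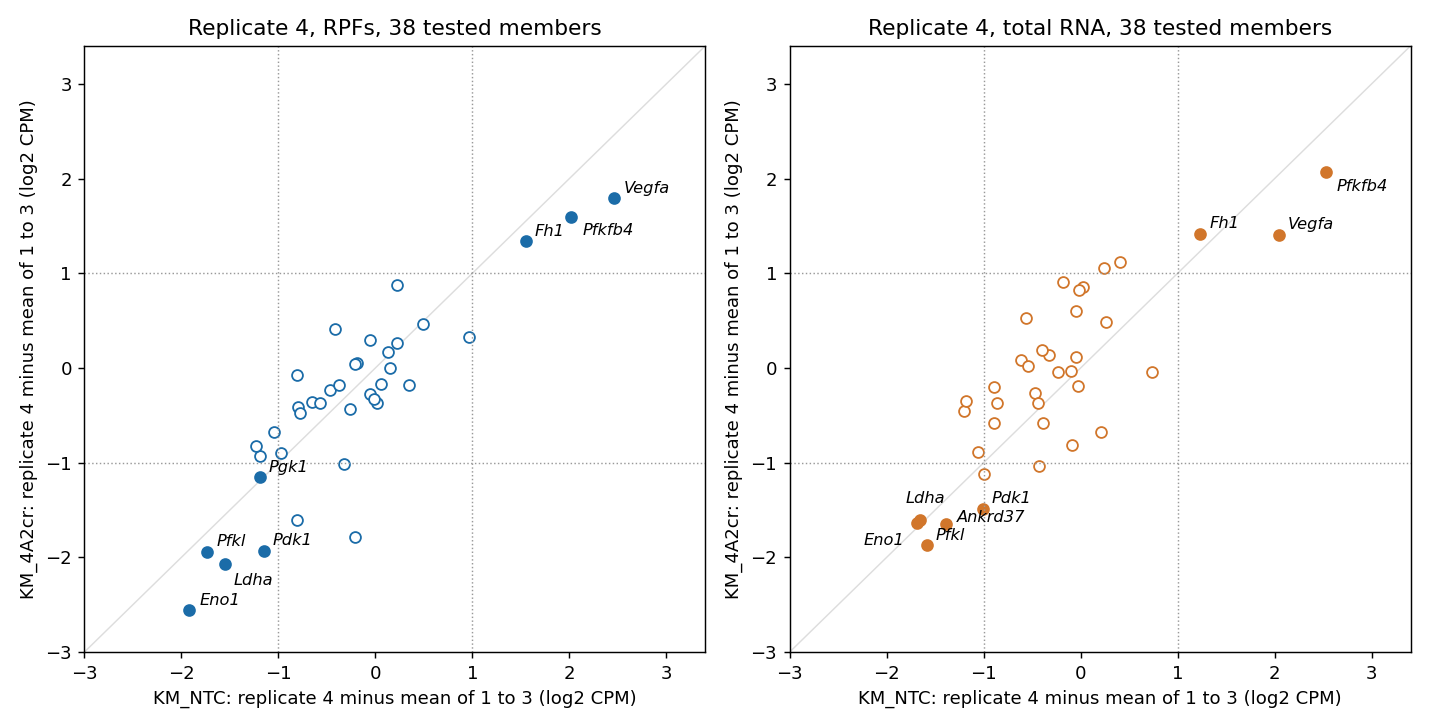
Replicate 4 minus the mean of replicates 1 to 3 (log2 CPM) in KM_NTC (horizontal) and KM_4A2cr (vertical) for the 38 tested members, in RPFs at left and total RNA at right, with dotted lines at a 2-fold difference and filled, named points past it in both lines. Vegfa, Pfkfb4 and Fh1 lie at the upper right of both panels, and Eno1, Ldha, Pfkl and Pdk1 at the lower left.

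As a pair, replicate 4 went against the others in total RNA. Of the 15 tested enzymes from hexokinase to lactate dehydrogenase, 1, 6 and 4 were higher in KM_4A2cr in replicates 1, 2 and 3, and 10 were higher in replicate 4. The medians of these differences were -0.14, -0.07, -0.12 and 0.27 on the log2 CPM scale, while the medians over all genes were -0.03, 0.02, 0.002 and 0.01. Gapdh was 0.92 higher in replicate 4, Pgk1 0.76 and Gpi1 0.73. RPFs of the same lysates gave medians of -0.20, -0.02, -0.32 and -0.08 over the same enzymes, with Gapdh at 0.07 and Pgk1 at -0.04 in replicate 4. Whether replicate 4 differs from the other pairs was not tested.

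**Figure D4:**
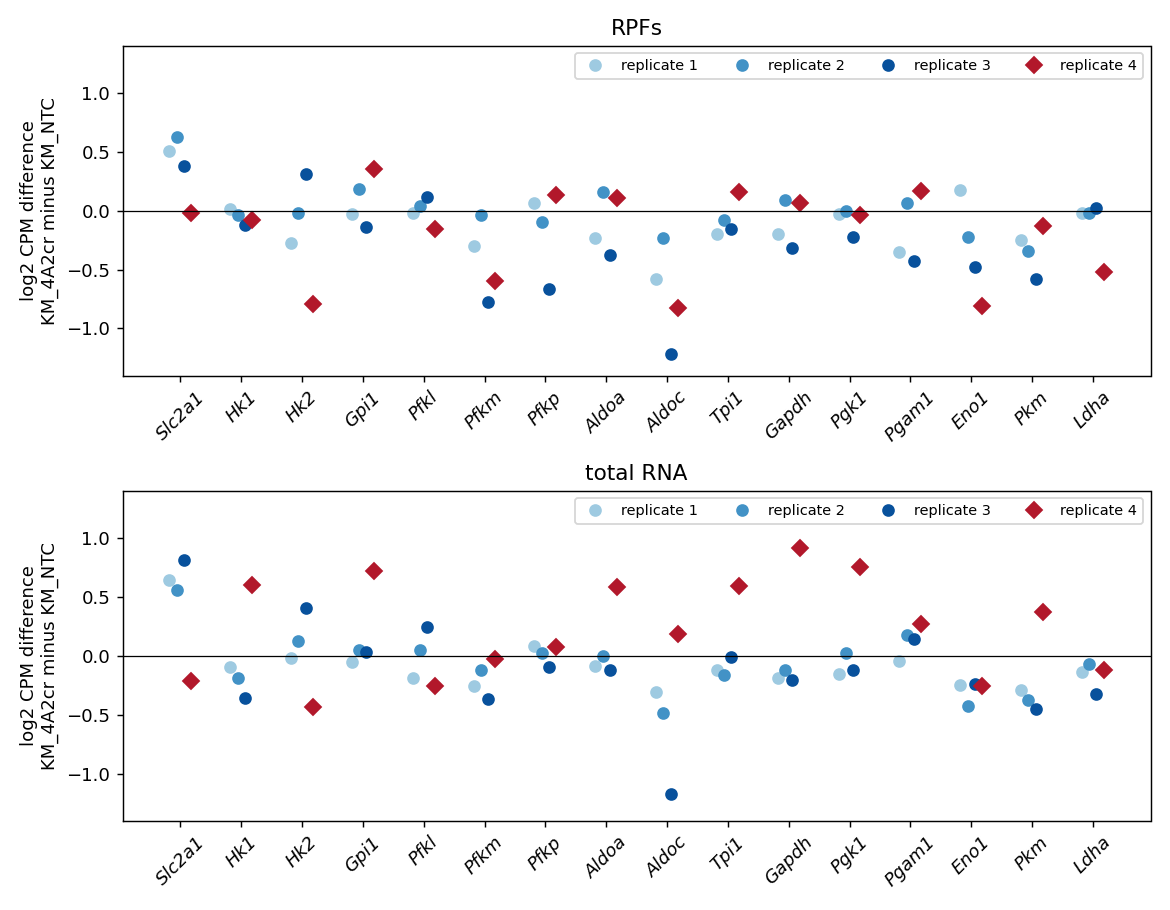
Difference in log2 CPM between KM_4A2cr and KM_NTC within each replicate for Slc2a1 and the 15 tested enzymes in the order of the pathway, in RPFs (top) and total RNA (bottom), with replicates 1 to 3 in blue and replicate 4 as red diamonds. In total RNA the diamonds of Hk1, Gpi1, Pfkm, Aldoa, Aldoc, Tpi1, Gapdh, Pgk1, Pgam1 and Pkm lie above the other replicates.

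Without replicate 4 the comparison of the lines held more calls, among the members and among all genes. Replicate 4 was singled out with results known, so the adjusted p values of this fit describe it and are no independent support. In RPFs 5 members were higher, where 19.1% of genes were, and 6 lower, where 14.3% were. In total RNA 5 were higher (17.8% of genes) and 9 lower (12.0%), and in translational efficiency 0 were higher by edgeR (5.04%) and 1 lower (2.90%). Slc2a1 was called higher, at 0.50 (adjusted p = 0.00458) in RPFs and 0.67 (adjusted p = 2.24e-05) in total RNA by edgeR, as were Egln1, Egln3, Vegfa and Pfkfb4 in both. Aldoc, Mdh2, Idh1, Idh3a and Pkm were called lower in both kinds of library, with Pkm at -0.39 (adjusted p = 0.0218) and -0.38 (adjusted p = 0.00361) by edgeR. Ogdh was called lower in RPFs alone, and Cs, Hif1a, Pdk3 and Eno1 in total RNA alone. Pgam1, phosphoglycerate mutase, was the member called lower in translational efficiency, at -0.31 (adjusted p = 0.0263) by edgeR. When replicate 1, 2 or 3 was left out instead, Slc2a1 was not called in RPFs, with adjusted p values of 0.356, 0.567 and 0.429 by edgeR.

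Other hypoxia genes, a list also chosen with earlier results of these data known, lay mostly above 0 in KM_4A2cr. Of 26 other tested genes of oxygen sensing and its targets, 21 had RPF log2 fold changes above 0, with a median of 0.18, and 4 passed the test as higher and 1 as lower, against the 6.60% and 3.72% of all genes. Without replicate 3 edgeR called 0 of them in RPFs and in total RNA, and without replicate 4 it called 9 and 11 higher. In total RNA 21 of 25 lay above 0, 5 were higher and edgeR called 0 lower, with 7 at an unadjusted p under 0.05 and 0 lower by DESeq2. Scaled by library size alone, which moved the median of all genes to -0.14 in RPFs and -0.15 in total RNA, 14 of 26 and 15 of 25 lay above 0. Mxi1, a MYC antagonist, gave 1.03 ± 0.15 (SE) in RPFs with an adjusted p of 0.0111 by edgeR. Ero1a, an oxidase of the endoplasmic reticulum, gave 0.90 ± 0.14 (SE) (adjusted p = 0.0127, edgeR) and P4ha1, a collagen prolyl hydroxylase, 0.74 ± 0.13 (SE) (adjusted p = 0.0182, edgeR). All 3 were higher in total RNA too, at 0.62, 0.71 and 0.63, and in 4 of 4 pairs of each kind. The fourth higher gene in RPFs was Bnip3, a mitophagy receptor, and the lower gene was Stc2, a secreted glycoprotein. In total RNA Ddit4, an mTOR inhibitor, and Plod1, a collagen lysyl hydroxylase, passed as well.

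**Figure D5:**
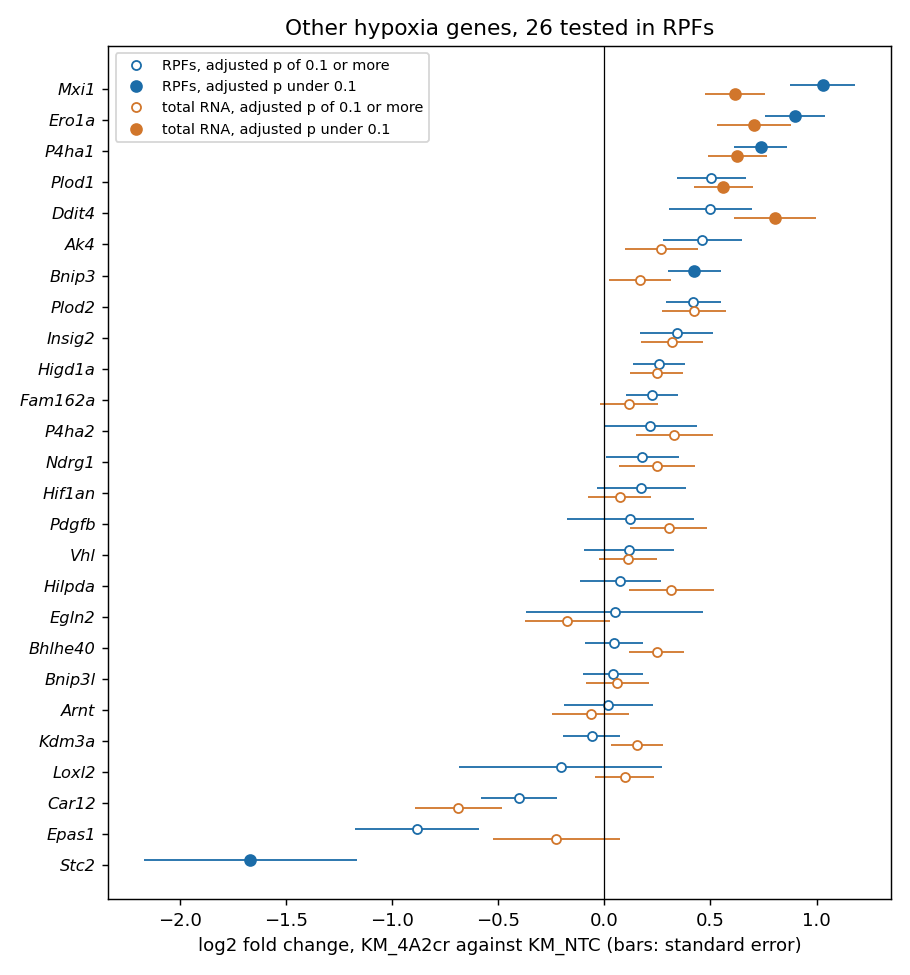
Log2 fold change of KM_4A2cr against KM_NTC for 26 other genes of oxygen sensing and hypoxia, sorted by the RPF value, in RPFs (blue) and total RNA (orange), with bars for the standard error and filled points for an adjusted p under 0.1. Mxi1, Ero1a and P4ha1 are filled in both kinds of library, and Stc2 lies lowest at -1.67.

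Each of the 4 neighbouring branches of metabolism gave 1 lower call in RPFs, where 3.72% of all genes were lower. Of 10 other glycolysis and lactate export genes tested in RPFs, 1 was lower, Ldhd, a lactate dehydrogenase of the mitochondrion that acts on D-lactate, at -1.52 ± 0.37 (SE) with an adjusted p of 0.0553 by edgeR. Of 22 other genes of pyruvate entry and the TCA cycle 1 was lower, Ogdhl, a relative of Ogdh, at -0.63 ± 0.19 (SE) with an adjusted p of 0.0963 by edgeR. The pentose phosphate list gave 1 lower of 10, Prps1, and the glycogen list 1 lower of 11, Pygb, at -0.50 and -0.49. In total RNA these 4 lists gave 0 calls by edgeR and 1 by DESeq2, with 6 genes at an unadjusted p under 0.05, and in translational efficiency all 5 lists gave 0 calls by edgeR and by DESeq2, with 8 such genes.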

How the data were processed

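RPFs and cytoplasmic total RNA were sequenced from KM_NTC and KM_4A2cr cells, 4 replicates each. Part of the genotype shared by all groups is not reported here. For RPFs the authors deposited counts per transcript, made by trimming with Cutadapt 1.18, alignment to the most abundant protein-coding transcript of each gene, UMI-tools 1.0.1 deduplication and summing over the coding sequence without its ends. For total RNA they deposited RSEM 1.3.3 expected counts and TPM per isoform after Bowtie2 2.3.5.1 alignment. RPFs were assigned to 1 transcript per gene, and reads that match near-identical genes can be exchanged between them.

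Expected counts were summed per gene and rounded, and a transcript missing from an RPF table was taken as 0. A gene name table gave symbols, and where 2 gene IDs shared one (Aldoa), the ID with more total RNA counts was used. Ero1a is listed there as Ero1l. Genes were filtered with filterByExpr (minimum count 10), scaled by TMM and tested with edgeR 4.0.16 (R 4.3.3) quasi-likelihood fits with cell line and replicate as terms. All tested genes entered the Benjamini-Hochberg adjustment and calls were made below 0.1. For translational efficiency, 1 model over 16 libraries tested whether the line effect differed between RPFs and total RNA. Log2 CPM used a prior count of 2. Depth ranged from 4512403 to 9621848 RPF counts and from 5350919 to 9312622 total RNA counts per library, so members under about 10 counts gave no test. Each kind was normalised on its own, so a change common to all mRNAs would not be seen. The fits were tested on simulated data. Alternatives were DESeq2 1.42.0, other scalings and filters, a threshold of 0.05, each replicate left out, and no replicate term.

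Replicates were separate experiments on different days per the design text of the series. The lines were paired by replicate number. Deviations of same-numbered libraries from their line means correlated at 0.575 to 0.782 in RPFs and 0.611 to 0.756 in total RNA. Libraries with different numbers were not compared, and replicate 4 stood apart in both lines, so these correlations cannot show that the numbers pair the lines. Values per sample are given for members past the threshold, the 6 with the largest mean replicate 4 difference and the 3 glycolytic enzymes with the highest mean TPM. Slc2a1, Pkm and some others were added after their values were seen. Of other pathway genes, called ones with the smallest RPF p were named, up to 3 a list, with Bnip3, Stc2, Ddit4 and Plod1 added to complete the counts. Members and lists were chosen with earlier results of these data known. Promoters are from RefSeq (GRCm38.p6), another build than that of the files.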

Additional observations from a re-analysis of the deposited data

Results flagged for a closer look

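On the log2 CPM scale, 152 groups of 4 libraries were examined (38 tested members in each line and kind of library). A group was marked when 1 library's gap to its nearest neighbour, over the group's range, passed Dixon's critical value for 4 samples. This marked 12 groups, whose levels are given below in CPM. Chance alone marks about 1 in 20 groups. In 9 of the 12 the library was replicate 4.

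Pfkfb4, the regulator of fructose-2,6-bisphosphate, stood high in replicate 4, at 28.1 CPM of RPFs in KM_NTC and 44.3 CPM of total RNA in KM_4A2cr. Gapdh was marked 3 times, all in replicate 4. It was lowest in RPFs of KM_4A2cr at 234 CPM and lowest in total RNA of KM_NTC at 1206 CPM, but highest in total RNA of KM_4A2cr at 2279 CPM. Eno1 was lowest in RPFs of KM_NTC replicate 4 at 7.76 CPM. The TCA cycle enzyme Idh3a was lowest in total RNA of replicate 4 in both lines, at 48.5 CPM in KM_NTC and 37.3 CPM in KM_4A2cr, and Mdh2 was lowest there in KM_NTC at 75.3 CPM.

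The other libraries marked were replicate 1 for Gpi1 in RPFs of KM_NTC, highest at 303 CPM, replicate 1 for Tpi1 in total RNA of KM_4A2cr, highest at 328 CPM, and replicate 2 for Pdhb in total RNA of KM_4A2cr, highest at 48.7 CPM.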

How the results depend on the processing

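The rise of Egln3 in total RNA kept its direction and its call under every alternative except the fit without a replicate block, where 0 members and 0 genes were called in RPFs, total RNA or translational efficiency. Of 1437 values of single members under alternatives, 33 lost and 30 gained a call and none that was called changed direction. Leaving out 1 replicate at a time gave 0 to 5 members higher and 0 to 6 lower in RPFs (29 to 1982 and 3 to 1487 of all genes), 1 to 5 higher and 0 to 9 lower in total RNA (50 to 1951 and 13 to 1309), and 0 to 1 lower in translational efficiency (10 to 508 and 3 to 292). In RPFs and total RNA the most genes were called without replicate 4 and the fewest without replicate 3.

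Library size as the only scaling gave 4 members lower in RPFs and 1137 genes lower, 1 member higher and 3 lower in total RNA with 262 genes higher and 868 lower, and 0 members lower in translational efficiency with 105 genes higher and 28 lower. Higher calls then made up 29.8% of all calls in RPFs, against 63.9%, and 23.2% in total RNA, against 70.9%, since the median of all genes moved to -0.14 and -0.15. Upper-quartile factors gave 53.5% and 60.1%, with 1 member higher in total RNA and 0 lower in translational efficiency. For replicate 4, library size alone gave 9 members at least 2-fold lower in RPFs, with 210 genes higher and 1329 lower, and 316 higher and 833 lower in total RNA.

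A minimum count of 30 left 1 member higher in RPFs, where Egln3 was no longer tested, and 1 in total RNA. An adjusted p of 0.05 left 1 member higher and 0 lower in RPFs (320 and 118 genes), 1 higher in total RNA (251 and 70) and 0 lower in translational efficiency (56 and 19). No filter gave 794 genes higher and 474 lower in total RNA and 303 and 167 in translational efficiency. DESeq2 gave 0 members lower in translational efficiency, with 102 genes higher and 34 lower, and counting only the isoform with RPF counts gave 0. The cause of these changes was not tested. Depth limits the scarce members, such as Egln3 and Ankrd37 in RPFs.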
